A study of Rattus norvegicus with 36 samples.

Results

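The hearts of rats trained as adults were compared with those of sedentary rats of the same age. Of the 36 heart arrays of the series, 14 enter this comparison: 7 from later exercise rats, which ran on a treadmill from week 20 to week 24 of life, and 7 from rats that stayed sedentary, all killed at 24 weeks of age. The trained hearts were taken 72 h after the last bout. All of them came from male Wistar Kyoto (WKY) Control rats, offspring of sham-operated mothers, with 1 array of whole heart RNA per rat, so both groups share the mother's surgery and each value is a mean over all cell types of the heart. A further group of the same age, 8 early exercise rats that had trained from week 5 to week 9 and then stopped, served for another comparison, and the 7 early exercise and 7 sedentary rats killed at 9 weeks for the last one. The array (Illumina RatRef-12 beadchip) carries 22523 probes, of which 10956 had a detection score of 0.95 or more on at least 7 of the 36 arrays and were tested. The tested probes with a symbol stand for 7904 genes.

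Endurance running asks the heart for a larger output over hours, and with repeated training heart muscle cells lengthen and thicken while capillaries, energy supply and the excitation of the muscle membrane adapt. Growth signals of this kind pass through insulin-like growth factor 1, the kinase Akt and mTOR, fuel use through the coactivators PGC-1α and PGC-1β, and the pace and force of the beat through β-adrenergic receptors, cyclic AMP and calcium. Proteins of the transforming growth factor β (TGF-β) and bone morphogenetic protein (BMP) families act on fibroblasts and muscle cells alike and set how much matrix is laid down between them.

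Later exercise differed from sedentary hearts at 1356 of 10956 probes at an adjusted p below 0.05 (12.4%), 503 of them higher (4.59%) and 853 lower (7.79%). At an unadjusted p below 0.05 the share was 26.2%, and the thresholds of the study's methods (an unadjusted p of at most 0.05 and a minimum fold) took 8.62%, with 541 probes higher (4.94%) and 403 lower (3.68%). Every share given below for a group of genes is to be read against these background shares, and counts of genes use the brightest probe of each gene (367 of 7904 higher, 636 lower, median log2 fold change -0.01). Changes were small: the median size of a call was 0.39 on the log2 scale in either direction, and 3 probes rose and 15 fell by at least 1 log2 unit. The 7 later exercise rats all lay above the 7 sedentary rats at 37 probes (0.338%) and all below them at 121 (1.1%). Of the 1356 probes, 1340 changed in the same direction on all 3 chips that the labels name, each of which held rats of both groups. The calls were made on the difference pooled over these same rats, so this count is largely set by the calls and is no separate support.

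The arrays themselves differed between the groups before normalization, and every result below stands beside that fact. Mean raw signal ran from 315 to 709 intensity units (median 578) in later exercise rats, against 715 to 1307 (median 897) in sedentary rats, so that the groups did not overlap (ratio 0.593, p = 0.000583 by a two-sided exact permutation test, which cannot give a smaller p with 7 rats in each group). The ratio was 0.575, 0.640 and 0.475 on chips 1, 2 and 3. The difference between the mean of 16 very long transcripts and the mean of 56 ribosomal protein transcripts, called the length score here, was also lower in later exercise hearts, from -5.01 to -4.17 (median -4.38), than in sedentary hearts, from -4.21 to -3.56 (median -3.96; difference of means -0.54, exact permutation p = 0.00117). The lists behind the length score were chosen with earlier results of these data known, so its p is no separate support. With brightness as a covariate 144 probes passed (46 higher, 98 lower), and with the length score 211 passed (64 higher, 147 lower). Because brightness does not overlap between the groups, training and brightness cannot be told apart. The split between higher and lower calls also rests on how the arrays are put on 1 scale. It was 38 higher and 4586 lower when the arrays were brought to the same median over all probes, where the median of the tested probes stood at -0.28, and 3585 higher and 890 lower when they were brought to the same median over the tested probes, an alternative chosen after seeing the data and called the tested-probe scale here, where it stood at 0.18. The counts of a list on that scale are given where they turn its balance of higher and lower calls or call markers that otherwise did not pass. On the scale of all probes 35 of 187 called genes followed here, all called higher, fell below 0, and 4 of the 187 changed sign once the shift of -0.28 was taken off. Directions below are therefore relative to the body of probes on the same array. Where a gene is not said to be free of overlap, the ranges of the groups overlapped.

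**Figure D1:**
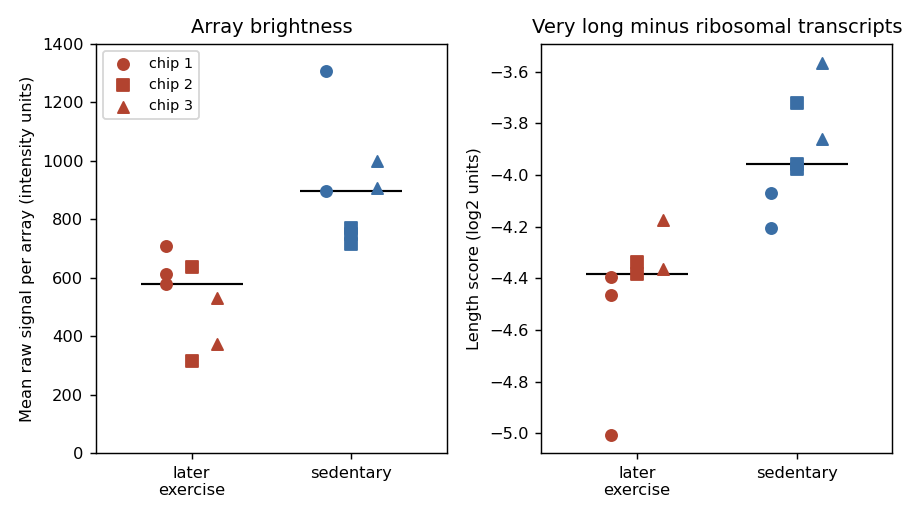
Mean raw signal per array in intensity units (left) and length score in log2 units (right) for the 7 later exercise and 7 sedentary rats at 24 weeks. Each point is 1 rat, the marker shows its chip and the bar the group median; the lowest sedentary array (715) lies just above the brightest later exercise array (709).

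The tissue was heart muscle by its markers in both groups. Of 9 markers of heart muscle tested, 1 rose (Mb, the oxygen store myoglobin, log2 0.36, adjusted p = 0.0221) and none fell. The call of Mb was lost in 2 of the 14 fits with a single rat left out (highest adjusted p = 0.0604, without sedentary replicate 7). The mean log2 level of the 9 genes ran from 12.88 to 13.21 in later exercise hearts and from 12.92 to 13.24 in sedentary hearts. None of 6 atrial, 22 endothelial or 8 red blood cell markers passed in either direction (mean level of the endothelial list 9.39 to 10.11 in later exercise and 9.56 to 9.84 in sedentary hearts). On the tested-probe scale 3 atrial markers were higher and 0 lower, 4 endothelial markers higher and 2 lower, 3 red blood cell markers higher and 0 lower, and 6 of the 9 heart muscle markers higher and 0 lower. Skeletal muscle markers gave 1 higher and 1 lower of 6, the lower being Mybpc2, a myosin binding protein of fast muscle (log2 fold change -0.60, SE 0.16, adjusted p = 0.013), while the higher one was Ckm, given with the PCR genes. Of 18 fibroblast markers 1 rose (Col3a1, given with the matrix), of 9 smooth muscle and pericyte markers 1 fell (Abcc9, given with the channels; 4 higher and 1 lower on the tested-probe scale), and of 12 fat cell markers 1 rose, Cfd, the complement factor adipsin (log2 fold change 0.55, SE 0.15, adjusted p = 0.0114). Of 11 markers of lung, liver, pancreas and nerve 1 rose, Spink1l, on a probe detected in 2 of 7 sedentary hearts (log2 fold change 0.93, SE 0.23, adjusted p = 0.00683). In whole heart RNA fewer cells of a type and less RNA per cell cannot be told apart.

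Several receptors of the BMP and activin branch fell in later exercise hearts. Bmpr2, the type II receptor for bone morphogenetic proteins, had log2 levels of 8.80, 8.22, 8.52, 9.04, 8.19, 8.21 and 9.13 in the 7 later exercise hearts, against 10.19, 9.74, 9.66, 10.07, 9.58, 10.21 and 9.88 in the 7 sedentary hearts. Every trained heart lay below every sedentary heart, at 0.401 times the sedentary level (log2 fold change -1.32, SE 0.16, adjusted p = 3.38e-06, where SE is the standard error). Its partner receptor Bmpr1a had 6.81 to 7.88 (median 7.58) in later exercise hearts, against 8.01 to 8.34 (median 8.19) in sedentary hearts, again with no overlap (log2 fold change -0.66, SE 0.13, adjusted p = 0.00102). Acvr2b, the type II receptor for activin and myostatin, had a lowest, median and highest level of 6.60, 7.59 and 7.79 in later exercise hearts and of 7.79, 8.08 and 8.23 in sedentary hearts (log2 fold change -0.68, SE 0.13, adjusted p = 0.00107). Smad4, the common partner that carries the signal of all these receptors to the nucleus, fell by a smaller amount (log2 fold change -0.36, SE 0.077, adjusted p = 0.00187), and so did the ligand Tgfb2 (log2 fold change -0.54, SE 0.14, adjusted p = 0.0116). In the list of BMP and TGF-β signalling 6 of 31 genes fell and 0 rose, against 8.05% and 4.64% of all genes, and the median of the list was -0.05. The list had 8 genes higher and 6 lower on the tested-probe scale (median 0.01). Bmpr2 kept its call with brightness (-1.09, adjusted p = 0.00962) and with the length score (-1.36, adjusted p = 0.000629) as a covariate. Those of Bmpr1a (adjusted p = 0.0676 and 0.0798), Smad4 (0.0687 and 0.284) and Tgfb2 (0.104 and 0.956) ended with either, and that of Acvr2b ended with brightness (0.0818) and not with the length score (0.0128).

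**Figure D2:**
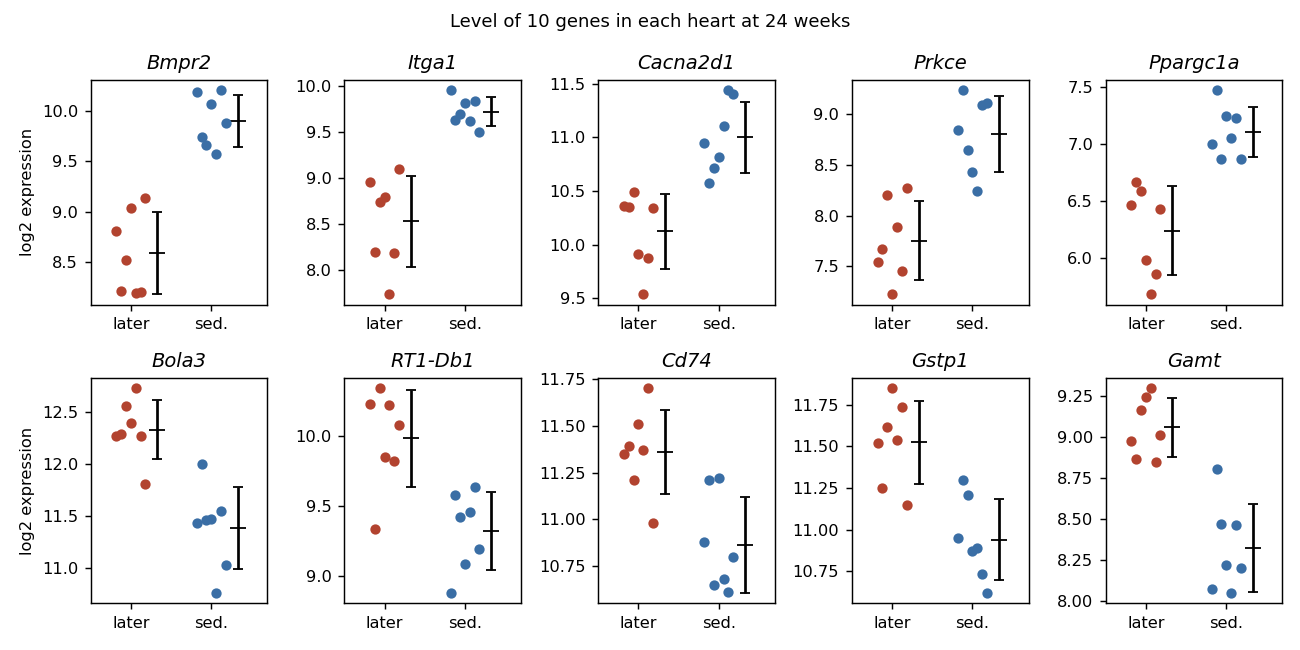
Log2 expression of 10 genes in each later exercise (later) and sedentary (sed.) heart at 24 weeks, 1 point per rat, with the mean and SD of 7 rats beside the points. Bmpr2, Itga1, Cacna2d1 and Ppargc1a are lower in every later exercise heart than in any sedentary heart and Gamt is higher in every one, while Prkce, Bola3, RT1-Db1, Cd74 and Gstp1 overlap.

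In the list of integrins and cell adhesion 10 of 32 fell and 0 rose (median log2 -0.07), against 8.05% and 4.64% of all genes. These genes tie heart cells to one another and to the matrix, and 6 were lower and 5 higher on the tested-probe scale. Itga1, the integrin α1 chain that binds collagen, had 7.73 to 9.10 (median 8.74) in later exercise hearts, against 9.50 to 9.96 (median 9.70) in sedentary hearts, with no overlap (log2 fold change -1.20, SE 0.16, adjusted p = 1.6e-05). Dmd, the dystrophin that links the actin under the membrane to the matrix, had 8.08 to 8.73 (median 8.24) in later exercise hearts, against 8.50 to 9.05 (median 8.92) in sedentary hearts (log2 fold change -0.48, SE 0.11, adjusted p = 0.00379), and Sgcd, δ-sarcoglycan of the same complex, fell too (log2 fold change -0.55, SE 0.13, adjusted p = 0.00531). At the junctions between heart cells the desmosomal plakophilin Pkp2 (log2 fold change -0.38, SE 0.092, adjusted p = 0.0059), the tight junction scaffold Tjp1 (log2 -0.33, adjusted p = 0.00776) and α-catenin Ctnna1 (log2 -0.28, adjusted p = 0.00966) fell to 0.769, 0.797 and 0.822 times the sedentary level, with Ctnna1 at 0.00 when the arrays were brought to the same median over the tested probes. Alcam, a cell adhesion molecule of the immunoglobulin family, and Add3, the adducin that caps actin and ties it to spectrin, lay outside that list and were below every sedentary heart (7.06 to 8.13 (median 7.65) in later exercise against 8.17 to 8.67 (median 8.61) in sedentary hearts for Alcam, 8.17 to 9.21 (median 8.72) in later exercise against 9.26 to 10.11 (median 9.52) in sedentary hearts for Add3). Their log2 fold changes were -0.83 (SE 0.13, adjusted p = 0.000141) and -0.89 (SE 0.14, adjusted p = 8.26e-05). With brightness as a covariate -0.99 for Itga1 (adjusted p = 0.0124), -0.69 for Add3 (0.0339) and -0.71 for Alcam (0.032) still passed, and the other genes of this paragraph did not. With the length score Itga1 (adjusted p = 0.0022) and Add3 passed and Alcam did not. The calls of Dmd (0.307), Sgcd (0.221), Pkp2 (0.335), Tjp1 (0.179) and Ctnna1 (0.843) ended with it too.

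The matrix itself changed in both directions. Enzymes that crosslink or cut it fell in 4 of 25 cases and rose in 0, against 8.05% and 4.64% of all genes. Loxl2, a lysyl oxidase that crosslinks collagen, had a lowest, median and highest level of 5.74, 6.58 and 7.49 in later exercise hearts and of 7.49, 7.87 and 8.06 in sedentary hearts (log2 fold change -1.06, SE 0.18, adjusted p = 0.000228). Adamts1, a secreted protease that cuts proteoglycans, had 8.85 to 9.65 (median 9.28) in later exercise hearts, against 9.43 to 10.10 (median 9.90) in sedentary hearts (log2 fold change -0.51, SE 0.12, adjusted p = 0.00465). Of 36 collagens and other matrix genes, 4 rose and 2 fell (5 higher and 5 lower on the tested-probe scale). The small leucine-rich proteoglycans of collagen fibrils stood on the higher side, Fmod (fibromodulin) at 2.24 times the sedentary level (log2 fold change 1.17, SE 0.33, adjusted p = 0.0176) and Prelp at 1.52 times, with 8.25 to 9.13 (median 9.01) in later exercise hearts, against 7.76 to 8.66 (median 8.11) in sedentary hearts (log2 fold change 0.60, SE 0.14, adjusted p = 0.00387). Col3a1, the fibrillar collagen III chain, was at 1.44 times (log2 fold change 0.53, SE 0.18, adjusted p = 0.0455), a call lost with single rats left out (adjusted p = 0.138 without later exercise replicate 6), and the short-chain collagen gene Col8a1 fell to 0.676 times (log2 fold change -0.57, SE 0.14, adjusted p = 0.00601). Csgalnact1, which starts chondroitin sulfate chains on proteoglycans, fell to 0.589 times with no overlap (log2 fold change -0.76, SE 0.11, adjusted p = 6.23e-05) and passed with brightness (adjusted p = 0.0337) and with the length score (0.0396) as a covariate. The calls of Loxl2, Adamts1, Fmod, Prelp and Col8a1 ended with brightness as a covariate (adjusted p from 0.0834 for Loxl2 to 0.346 for Col8a1), while Loxl2 (0.0214) and Col8a1 (0.0226) passed with the length score.

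**Figure D3:**
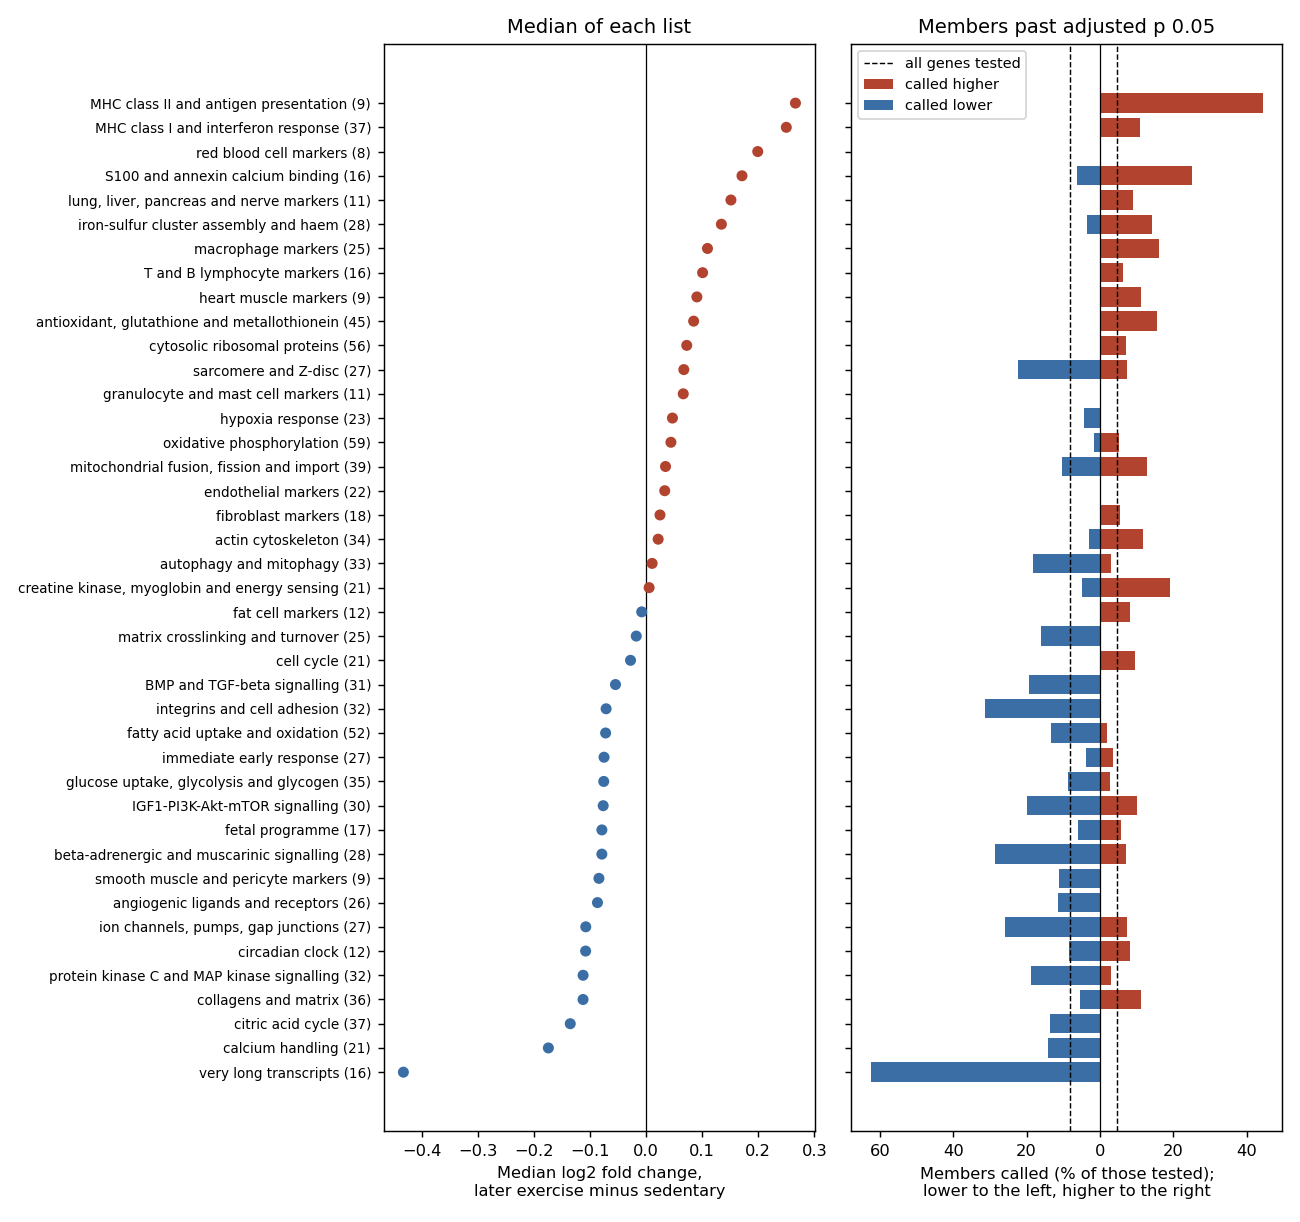
Median log2 fold change, later exercise minus sedentary, of each gene list with at least 8 genes tested (left, number tested in parentheses) and percent of its members called higher (right of 0) or lower (left of 0) at an adjusted p below 0.05 (right). Dashed lines mark the share of all genes called higher (4.64%) and lower (8.05%); very long transcripts stand at the bottom (median -0.43) and MHC class II genes at the top (0.27).

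Genes that carry the cardiac action potential and bring calcium into the cell were followed in a pair of lists. Of 27 sodium, potassium and chloride channels, pumps and gap junction genes, 7 fell and 2 rose (median -0.11), and of 21 calcium handling genes 3 fell and 0 rose (median -0.17). The shares of all genes were 8.05% lower and 4.64% higher. On the tested-probe scale 6 channel genes were lower and 5 higher, and 3 calcium genes lower and 2 higher. Kcnd2 and Kcnd3 form the pore of the channel for the transient outward potassium current of early repolarization. Kcnd2 had a lowest, median and highest level of 7.03, 7.93 and 8.41 in later exercise hearts and of 8.36, 8.81 and 8.88 in sedentary hearts (log2 fold change -0.90, SE 0.17, adjusted p = 0.000592), and Kcnd3 had 5.63, 6.23 and 6.40 in later exercise hearts and 6.36, 6.78 and 7.32 in sedentary hearts (log2 fold change -0.68, SE 0.14, adjusted p = 0.00106). Kcnip2, an accessory subunit of the same channel, was called higher (log2 fold change 0.28, SE 0.09, adjusted p = 0.0376). That call was lost in 10 of the 14 fits with a single rat left out (highest adjusted p = 0.0851, without sedentary replicate 7). It also ended with brightness (adjusted p = 0.257) and with the length score (0.123) as a covariate, and held on the tested-probe scale (0.39, adjusted p = 0.00742). Abcc9, the sulfonylurea receptor of the potassium channel gated by ATP, fell to 0.653 times (log2 fold change -0.61, SE 0.12, adjusted p = 0.000711), and Kcnj5, a subunit of the channel that acetylcholine opens, had 8.33 to 8.69 (median 8.38) in later exercise hearts, against 8.74 to 8.96 (median 8.90) in sedentary hearts, with no overlap (log2 fold change -0.40, SE 0.10, adjusted p = 0.0107). The bicarbonate cotransporter Slc4a4 fell to 0.503 times (log2 fold change -0.99, SE 0.17, adjusted p = 0.000264), although its probe was detected in 3 of 7 later exercise and 7 of 7 sedentary hearts. Slc6a6, the taurine transporter, lay outside both lists and fell to 0.572 times (log2 fold change -0.81, SE 0.16, adjusted p = 0.00112). Fxyd2, a small partner of the sodium pump, rose to 1.69 times, with 7.51 to 8.62 (median 8.17) in later exercise hearts, against 6.93 to 7.59 (median 7.39) in sedentary hearts (log2 fold change 0.75, SE 0.15, adjusted p = 0.00112), and its other probe also rose (log2 0.68, SE 0.20, adjusted p = 0.0243).

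Among calcium genes the auxiliary subunits of the L-type channel fell. Cacna2d1, the α2δ subunit, had 9.54 to 10.49 (median 10.34) in later exercise hearts, against 10.57 to 11.44 (median 10.95) in sedentary hearts, with no overlap (log2 fold change -0.88, SE 0.13, adjusted p = 4.34e-05). Cacnb2, the β subunit that brings the pore to the membrane, had 6.81 to 7.96 (median 7.30) in later exercise hearts, against 7.62 to 8.11 (median 7.88) in sedentary hearts (log2 fold change -0.52, SE 0.12, adjusted p = 0.00304). Itpr1, a calcium release channel opened by inositol trisphosphate, was below every sedentary heart at 0.749 times the level (log2 fold change -0.42, SE 0.086, adjusted p = 0.00146). Cacna2d1 passed with brightness (-0.74, adjusted p = 0.0225) and with the length score (-0.65, adjusted p = 0.0322) as a covariate. Kcnd2 (adjusted p = 0.0549 with brightness and 0.0377 with the length score), Kcnd3 (0.108 and 0.0377), Abcc9 (0.116 and 0.0398), Slc4a4 (0.0679 and 0.00546) and Slc6a6 (0.0534 and 0.0367) lost the call with brightness and kept it with the length score. The calls of Kcnj5 (0.345 and 0.166), Fxyd2 (0.0965 and 0.210), Cacnb2 (0.285 and 0.110) and Itpr1 (0.0853 and 0.0727) ended with either covariate.

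In the chain from β-adrenergic and muscarinic receptors through cyclic AMP, 8 of 28 genes fell and 2 rose (median -0.08), while 10 were higher and 4 lower on the tested-probe scale (median 0.02). Among all genes 8.05% fell and 4.64% rose. Phosphodiesterases of the PDE4 family, which break down cyclic AMP near the receptors and calcium channels, fell in Pde4b (5.62, 5.98 and 6.53 for the lowest, median and highest later exercise heart and 6.51, 6.65 and 6.97 for sedentary hearts, log2 fold change -0.71, SE 0.14, adjusted p = 0.00107) and in Pde4d (log2 fold change -0.46, SE 0.13, adjusted p = 0.0141, detected in 2 of 7 later exercise and 7 of 7 sedentary hearts). On the tested-probe scale Pde4b stood at -0.31 (adjusted p = 0.0530) and Pde4d at -0.01 (adjusted p = 0.944). Pde4a also fell (log2 fold change -0.54, SE 0.15, adjusted p = 0.0174), a call lost with one rat left out (adjusted p = 0.0515 without later exercise replicate 4). Of the anchoring proteins that hold protein kinase A beside its targets 3 fell: Akap9, known in the heart for its tie to the channel Kcnq1, with 8.78 to 9.66 (median 9.25) in later exercise hearts, against 9.79 to 10.35 (median 10.02) in sedentary hearts and no overlap (log2 fold change -0.78, SE 0.12, adjusted p = 0.000101), Akap6 of the nuclear envelope (log2 -0.50, adjusted p = 0.0137) and Akap13 (log2 -0.39, adjusted p = 0.00773, with adjusted p = 0.192 on the tested-probe scale). Prkacb, a catalytic subunit of protein kinase A, fell to 0.773 times (log2 fold change -0.37, SE 0.10, adjusted p = 0.0163). Chrm2, the muscarinic receptor that slows the heart, was called lower (log2 fold change -0.42, SE 0.10, adjusted p = 0.00488) on a probe detected in 1 of 7 later exercise and 7 of 7 sedentary hearts, and stood at 0.05 (adjusted p = 0.740) on the tested-probe scale. Gnao1, a G protein α subunit of the inhibitory class, lay outside the list and fell to 0.568 times with no overlap (log2 fold change -0.82, SE 0.16, adjusted p = 0.00112). Adcy5, the main adenylyl cyclase of heart muscle, rose to 1.4 times, with 6.72 to 7.64 (median 7.17) in later exercise hearts, against 6.37 to 6.88 (median 6.71) in sedentary hearts (log2 fold change 0.49, SE 0.13, adjusted p = 0.0145). The other member of the list that rose was Gnai2, also an inhibitory α subunit (log2 fold change 0.37, SE 0.13, adjusted p = 0.0466). That call was lost in 9 of the 14 fits with a single rat left out (highest adjusted p = 0.127, without later exercise replicate 5). Akap9 alone of these passed with brightness as a covariate (-0.70, adjusted p = 0.0257), and none passed with the length score, of which Akap9 and Akap13 are themselves members and with which Akap6 turned to 0.06.

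Several kinases of the growth and stress pathways fell. In the list of protein kinase C and MAP kinase signalling 6 of 32 fell and 1 rose (median -0.11), against 8.05% and 4.64% of all genes. Prkce, protein kinase Cε, had 7.22 to 8.28 (median 7.67) in later exercise hearts, against 8.24 to 9.24 (median 8.85) in sedentary hearts (log2 fold change -1.05, SE 0.22, adjusted p = 0.00166). Map3k1 and Map2k4, kinases that act in turn on the stress kinase JNK, both lay below every sedentary heart, Map3k1 with 5.59 to 6.48 (median 5.86) in later exercise against 6.54 to 7.15 (median 6.64) in sedentary hearts (log2 fold change -0.76, SE 0.13, adjusted p = 0.000253) and detected in 3 of 7 later exercise hearts, Map2k4 at 0.721 times (log2 fold change -0.47, SE 0.10, adjusted p = 0.00197). The phosphatases Dusp8 and Dusp3, which switch such kinases off, fell as well, Dusp8 with no overlap (log2 fold change -0.76, SE 0.14, adjusted p = 0.00051) and Dusp3 at 0.537 times (log2 fold change -0.90, SE 0.20, adjusted p = 0.00354). Rasa1, which turns off the GTPase Ras, had 8.39 to 8.87 (median 8.60) in later exercise hearts, against 9.16 to 9.86 (median 9.64) in sedentary hearts, with no overlap (log2 fold change -0.92, SE 0.13, adjusted p = 4.34e-05). Rhoa, a small GTPase that governs actin fibres, rose to 1.43 times, with 11.99 to 12.30 (median 12.18) in later exercise hearts, against 11.36 to 12.03 (median 11.60) in sedentary hearts (log2 fold change 0.51, SE 0.14, adjusted p = 0.0117). Prkce (adjusted p = 0.0284), Map3k1 (0.04) and Rasa1 (0.0264) passed with brightness as a covariate, and Dusp3 (0.014), Rhoa (0.0487) and Rasa1 (0.0289) with the length score.

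The insulin-like growth factor and mTOR chain, the route linked to growth of heart muscle with training, had 6 of 30 genes that fell and 3 that rose 72 h after the last bout (median -0.08). Among all genes 8.05% fell and 4.64% rose. The list had 8 higher and 6 lower on the tested-probe scale (median 0.20), 1 higher and 0 lower with brightness as a covariate, and 0 higher and 1 lower with the length score. Mtor had 8.63 to 9.18 (median 8.99) in later exercise hearts, against 9.08 to 9.89 (median 9.43) in sedentary hearts (log2 fold change -0.49, SE 0.10, adjusted p = 0.00188) and Pdpk1, the kinase that activates Akt, had 9.03 to 9.82 (median 9.38) in later exercise hearts, against 9.57 to 10.20 (median 9.88) in sedentary hearts (log2 fold change -0.47, SE 0.11, adjusted p = 0.00326). The growth factor gene Igf2 fell to 0.791 times (log2 fold change -0.34, SE 0.093, adjusted p = 0.0147). Eif4ebp1, which holds back translation until mTOR phosphorylates it, rose, with 10.28 to 10.73 (median 10.59) in later exercise hearts, against 9.88 to 10.48 (median 10.32) in sedentary hearts (log2 fold change 0.33, SE 0.087, adjusted p = 0.0112), and Igfbp6, a binding protein that favours insulin-like growth factor 2, rose to 1.28 times (log2 fold change 0.36, SE 0.097, adjusted p = 0.0135). Igfbp6 alone of these passed with brightness as a covariate (0.48, adjusted p = 0.0364), and none passed with the length score.

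In the contractile apparatus and the Z-disc, the plate that anchors thin filaments, 6 of 27 genes fell and 2 rose, with 16 of the 27 above 0 (median 0.07). On the tested-probe scale 12 were higher and 4 lower. Ldb3 (also called ZASP), which steadies the Z-disc, had 10.96 to 11.56 (median 11.15) in later exercise hearts, against 11.41 to 12.01 (median 11.82) in sedentary hearts (log2 fold change -0.60, SE 0.12, adjusted p = 0.000911). Myot, myotilin, had 8.34 to 9.05 (median 8.57) in later exercise hearts, against 8.98 to 9.63 (median 9.30) in sedentary hearts (log2 fold change -0.68, SE 0.15, adjusted p = 0.00305). Pdlim1, another Z-disc protein with a PDZ and a LIM domain, was higher (log2 fold change 0.31, SE 0.095, adjusted p = 0.0266). Its call was lost in 3 of the 14 fits with a single rat left out (highest adjusted p = 0.0824, without sedentary replicate 5) and on the tested-probe scale (adjusted p = 0.0560). The α-actinin gene Actn2 was lower by a small amount (log2 -0.33, adjusted p = 0.0169), a call lost with one rat left out (adjusted p = 0.0591 without later exercise replicate 4). On the tested-probe scale Actn2 stood at 0.20 and did not pass (adjusted p = 0.213). With the same median over all probes it stood at -0.26, which is 0.02 relative to the shift of -0.28 of all tested probes. Myh7, the slow β-myosin heavy chain that rises in overload, was at 1.28 times (log2 fold change 0.36, SE 0.11, adjusted p = 0.0346). Its probe was bright, with 14.66 to 15.01 (median 14.86) in later exercise hearts, against 14.09 to 14.89 (median 14.51) in sedentary hearts. Its call was lost in 7 of the 14 fits with a single rat left out (highest adjusted p = 0.105, without sedentary replicate 5). Of 17 genes of the fetal programme 1 rose and 1 fell. The gene that fell was Myocd, the coactivator myocardin of heart and smooth muscle genes, with 7.30 to 8.22 (median 7.91) in later exercise hearts, against 8.30 to 9.06 (median 8.58) in sedentary hearts and no overlap (log2 fold change -0.81, SE 0.16, adjusted p = 0.00128). Of 34 actin cytoskeleton genes 4 rose and 1 fell, among them Arpc1b, a subunit of the Arp2/3 complex that branches actin, above every sedentary heart (log2 fold change 0.52, SE 0.14, adjusted p = 0.0115). Ldb3 passed with brightness as a covariate (adjusted p = 0.0407), and Myot, Myocd and Arpc1b did not with either covariate.

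Both PGC-1 coactivators, which drive the making of mitochondria and of enzymes that burn fatty acids, were lower in trained hearts at this time. Ppargc1a (PGC-1α) had 6.47, 6.67, 6.59, 5.98, 5.68, 5.86 and 6.43 in the 7 later exercise hearts, against 7.00, 7.47, 6.87, 7.25, 7.05, 7.23 and 6.87 in the 7 sedentary hearts, with no overlap (log2 fold change -0.87, SE 0.19, adjusted p = 0.00226). Ppargc1b (PGC-1β) had a lowest, median and highest level of 5.40, 5.54 and 6.09 in later exercise hearts, where it was detected in 1 of 7, and of 6.07, 6.26 and 6.62 in sedentary hearts, where it was detected in all (log2 fold change -0.67, SE 0.095, adjusted p = 3.49e-05). On the tested-probe scale Ppargc1b stood at -0.18 and did not pass (adjusted p = 0.207). The exercise response of Ppargc1a is known to run in part through a cyclic AMP response element, and the promoter of the rat gene (RefSeq, build GRCr8, chr14:63634058-63634357, plus strand) is shown as 300 bases around the start that the RefSeq promoter table gives. That start lies within the annotated span of the gene (chr14:63073505-63729215), so it is 1 start of the gene and not the first. It is printed with the letters TGACGTCA in capitals, which were searched on both strands and occur in 1.83% of all 33469 promoters of this length:
Ppargc1a: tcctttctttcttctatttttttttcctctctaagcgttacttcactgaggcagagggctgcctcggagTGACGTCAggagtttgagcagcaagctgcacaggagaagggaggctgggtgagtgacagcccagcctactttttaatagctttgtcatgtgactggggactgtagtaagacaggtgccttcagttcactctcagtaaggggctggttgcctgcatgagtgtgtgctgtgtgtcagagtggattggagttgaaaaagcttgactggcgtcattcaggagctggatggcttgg
Of 52 genes of fatty acid uptake and oxidation 7 fell and 1 rose (median -0.07), against 8.05% and 4.64% of all genes. The list had 14 higher and 6 lower on the tested-probe scale. Cpt2, which hands acyl groups to coenzyme A inside the mitochondrion, had 12.84 to 13.11 (median 12.98) in later exercise hearts, against 13.14 to 13.38 (median 13.29) in sedentary hearts with no overlap (log2 fold change -0.30, SE 0.069, adjusted p = 0.00349), and Acat1, a thiolase of ketone body use, had 11.29 to 11.67 (median 11.56) in later exercise hearts, against 11.79 to 11.98 (median 11.91) in sedentary hearts with no overlap (log2 fold change -0.41, SE 0.077, adjusted p = 0.000703). Cpt1a, a liver type of the enzyme that admits fatty acids to mitochondria, was at 0.77 times (log2 fold change -0.38, SE 0.10, adjusted p = 0.0149), a call lost with one rat left out (adjusted p = 0.052 without sedentary replicate 5). Fabp3, the carrier of fatty acids in the cytoplasm of heart cells, rose to 1.3 times, with 14.36 to 14.92 (median 14.64) in later exercise hearts, against 13.91 to 14.40 (median 14.29) in sedentary hearts (log2 fold change 0.38, SE 0.10, adjusted p = 0.0144). Ppargc1b passed with brightness (-0.53, adjusted p = 0.025) and with the length score (-0.77, adjusted p = 0.000629), Acat1 (0.0401) and Cpt1a (0.0447) with brightness, and Ppargc1a (adjusted p = 0.0878 and 0.23), Cpt2 and Fabp3 with neither.

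Of 37 genes of the citric acid cycle 32 had a log2 fold change below 0 (median -0.14). Calls were 5 lower and 0 higher, against 8.05% and 4.64% of all genes. The list had 7 higher and 4 lower on the tested-probe scale (median 0.07), and no call and a median of 0.00 with the length score as a covariate. Nnt, the transhydrogenase that makes mitochondrial NADPH, lay below every sedentary heart, with 13.78 to 14.39 (median 14.15) in later exercise hearts, against 14.39 to 14.96 (median 14.56) in sedentary hearts (log2 fold change -0.48, SE 0.10, adjusted p = 0.0026), and Ogdh, a subunit of the 2-oxoglutarate dehydrogenase complex, fell to 0.79 times (log2 fold change -0.34, SE 0.075, adjusted p = 0.00285). Their directions turned when the arrays were brought to the same median over the tested probes (0.08 and 0.05). In glucose and glycogen use 3 of 35 genes fell (8.57%) and 1 rose (2.86%), near the 8.05% and 4.64% of all genes. On the tested-probe scale 6 were higher and 3 lower. Among those that fell were Phka1, a regulatory subunit of phosphorylase kinase (log2 fold change -0.43, SE 0.10, adjusted p = 0.00612), and the glycogen phosphorylase Pygb (log2 fold change -0.38, SE 0.1, adjusted p = 0.0108). Oxidative phosphorylation gave 3 higher and 1 lower of 59 (median 0.04), against 4.64% and 8.05% of all genes, but 54 higher and 0 lower on the tested-probe scale (median 0.52). Cox17, which carries copper to cytochrome c oxidase, was among those that rose (log2 fold change 0.34, SE 0.079, adjusted p = 0.00468). None of these passed with brightness or the length score as a covariate.

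The transfer of energy by creatine and the assembly of iron-sulfur clusters held genes that rose. In the list of creatine kinase, myoglobin and energy sensing 4 of 21 rose and 1 fell. Gamt, which makes creatine by methylating guanidinoacetate, lay above every sedentary heart, with 8.84 to 9.29 (median 9.01) in later exercise hearts, against 8.05 to 8.80 (median 8.21) in sedentary hearts (log2 fold change 0.73, SE 0.12, adjusted p = 0.000119). Prkag2, a regulatory subunit of the energy sensor AMP-activated kinase, had 9.26 to 9.83 (median 9.50) in later exercise hearts, against 9.72 to 10.31 (median 9.76) in sedentary hearts and was the member that fell (log2 fold change -0.43, SE 0.097, adjusted p = 0.00302). Of 28 genes of iron-sulfur cluster assembly and haem, 4 rose and 1 fell. Bola3, which hands iron-sulfur clusters to mitochondrial enzymes such as the lipoate synthase, had 11.81 to 12.73 (median 12.29) in later exercise hearts, against a lowest level of 10.76 and a median of 11.46 in sedentary hearts, with overlap of the ranges (log2 fold change 0.95, SE 0.14, adjusted p = 7.21e-05). Tfrc, the transferrin receptor that takes iron into cells, was not above the detection limit in any later exercise heart and was in 6 of 7 sedentary hearts. With the deposited log2 values this puts it at least 1.16-fold lower in later exercise hearts (adjusted p = 0.0236). Its call was lost in 4 of the 14 fits with a single rat left out (highest adjusted p = 0.0647, without sedentary replicate 5). On the tested-probe scale its measured difference stood at 0.12 (adjusted p = 0.531). Gamt passed with the length score (adjusted p = 0.0469) and Prkag2 with brightness (0.0257), and Bola3 passed with neither (0.0556 with brightness, 0.0507 with the length score).

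Of 45 antioxidant and detoxifying genes 7 rose and none fell, against 4.64% and 8.05% of all genes. Msrb2, which repairs oxidized methionine in mitochondria, lay above every sedentary heart, with 9.51 to 9.86 (median 9.64) in later exercise hearts, against 8.86 to 9.37 (median 9.19) in sedentary hearts (log2 fold change 0.48, SE 0.084, adjusted p = 0.000323). Gpx7, a glutathione peroxidase of the endoplasmic reticulum, had 6.88 to 7.77 (median 7.39) in later exercise hearts, against 6.53 to 6.95 (median 6.88) in sedentary hearts (log2 fold change 0.53, SE 0.1, adjusted p = 0.000669). Gstp1, a glutathione transferase, had 11.15 to 11.85 (median 11.54) in later exercise hearts, against 10.62 to 11.30 (median 10.89) in sedentary hearts (log2 fold change 0.59, SE 0.12, adjusted p = 0.00107), while another, dimmer probe of the gene did not pass (log2 0.36, SE 0.35, adjusted p = 0.561). Sod3, the superoxide dismutase outside the cell, rose to 1.4 times (log2 fold change 0.48, SE 0.12, adjusted p = 0.00815). The metallothioneins Mt1 and Mt3, which bind zinc and other metals, were at 1.42 and 1.45 times (log2 0.51, adjusted p = 0.0286 for Mt1, log2 0.54, adjusted p = 0.0447 for Mt3), calls lost with single rats left out (adjusted p = 0.0764 without later exercise replicate 4 for Mt1, adjusted p = 0.136 without later exercise replicate 4 for Mt3). Msrb2 (adjusted p = 0.041) and Gpx7 (0.032) passed with brightness as a covariate, and none of these passed with the length score.

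The promoters of Gstp1 and Mt1 are shown because each gene is a textbook target of the response its product serves, Gstp1 through antioxidant elements and Mt1 through metal response elements (RefSeq, GRCr8, chr1:210769656-210769955, minus strand and chr19:10832926-10833225, minus strand). Capitals mark matches on either strand to the core of the antioxidant response element in Gstp1 and to the metal response core TGCNCNC in Mt1:
Gstp1: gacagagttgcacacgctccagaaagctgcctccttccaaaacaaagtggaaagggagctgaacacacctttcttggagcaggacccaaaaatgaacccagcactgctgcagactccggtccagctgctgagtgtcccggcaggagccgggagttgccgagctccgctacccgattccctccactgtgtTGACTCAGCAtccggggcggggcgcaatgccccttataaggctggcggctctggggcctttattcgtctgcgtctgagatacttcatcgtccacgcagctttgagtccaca
Mt1: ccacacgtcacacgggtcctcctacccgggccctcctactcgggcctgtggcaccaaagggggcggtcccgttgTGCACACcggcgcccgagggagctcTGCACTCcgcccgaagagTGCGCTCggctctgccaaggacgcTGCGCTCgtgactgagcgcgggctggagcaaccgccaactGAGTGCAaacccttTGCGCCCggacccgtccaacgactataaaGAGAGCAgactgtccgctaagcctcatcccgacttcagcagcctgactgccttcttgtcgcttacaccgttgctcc
The antioxidant core occurred in 3.00% of all 33469 promoters, in 2.93% of 307 promoters of genes called higher and in 1.73% of 521 of genes called lower. TGCNCNC is short and occurred in 49.6% of all promoters, but 7 copies, as in Mt1, were reached by 36 promoters (0.108%), and the promoter of Mt3 held 5. A match is a run of letters and not a measured site.

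With the deposited log2 values, genes of antigen presentation formed the group with the highest median of all lists with at least 8 genes tested. This rank rests on the setting. On the tested-probe scale their median was 0.33, against 0.85 for heart muscle markers. With brightness as a covariate it was 0.14, against 0.15 for markers of lung, liver, pancreas and nerve. With the length score it was 0.16, against 0.26 for genes of MHC class I and the interferon response. Of 9 MHC class II genes 4 rose and 0 fell (median 0.27). RT1-Db1, a β chain of the class II molecule, had 10.23, 9.34, 10.34, 9.85, 10.22, 9.82 and 10.08 in the 7 later exercise hearts, against 8.88, 9.58, 9.42, 9.09, 9.46, 9.64 and 9.20 in the 7 sedentary hearts, where 6 of 7 trained hearts were above all sedentary hearts (log2 fold change 0.66, SE 0.16, adjusted p = 0.00487). Cd74, the invariant chain that guides class II molecules, had 10.98 to 11.70 (median 11.37) in later exercise hearts, against 10.61 to 11.22 (median 10.80) in sedentary hearts (log2 fold change 0.49, SE 0.13, adjusted p = 0.00966), and RT1-DMa, which helps load the peptide, had 7.09 to 8.17 (median 7.40) in later exercise hearts, against 6.81 to 7.23 (median 7.03) in sedentary hearts (log2 fold change 0.50, SE 0.13, adjusted p = 0.0128). The α chain gene RT1-Ba had 8.32 to 8.53 (median 8.42) in later exercise hearts, against 7.82 to 8.38 (median 8.03) in sedentary hearts (log2 fold change 0.33, SE 0.10, adjusted p = 0.0272), a call lost with single rats left out (adjusted p = 0.0697 without sedentary replicate 3), and it stood at -0.17 when array medians over all probes were made equal, against the shift of -0.28 of all tested probes. The other genes of this group stayed above 0 there. RT1-Db1 passed with the length score (0.92, adjusted p = 0.0124), and none of the genes passed with brightness (adjusted p from 0.107 for Cd74 to 0.388 for RT1-Db1).

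Class II genes share promoter elements bound in turn by a common set of factors, among them a Y box with the letters CTGATTGG, so the promoters of the 4 genes that rose are set side by side (RefSeq, GRCr8: RT1-Db1 chr20:4560113-4560412, minus strand, RT1-Ba chr20:4576807-4577106, plus strand, RT1-DMa chr20:4712286-4712585, minus strand, Cd74 chr18:56526956-56527255, plus strand). Capitals mark CTGATTGG in RT1-Db1, CTGATTGG and TGACGTCA in RT1-Ba, and its inner letters ATTGG, on either strand, in RT1-DMa and Cd74, which hold no full Y box:
RT1-Db1: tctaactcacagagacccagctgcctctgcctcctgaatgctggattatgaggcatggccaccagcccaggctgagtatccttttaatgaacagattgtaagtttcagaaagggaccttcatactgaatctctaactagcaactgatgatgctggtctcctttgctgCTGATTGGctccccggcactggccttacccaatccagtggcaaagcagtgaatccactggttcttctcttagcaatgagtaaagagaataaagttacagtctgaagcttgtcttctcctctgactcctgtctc
RT1-Ba: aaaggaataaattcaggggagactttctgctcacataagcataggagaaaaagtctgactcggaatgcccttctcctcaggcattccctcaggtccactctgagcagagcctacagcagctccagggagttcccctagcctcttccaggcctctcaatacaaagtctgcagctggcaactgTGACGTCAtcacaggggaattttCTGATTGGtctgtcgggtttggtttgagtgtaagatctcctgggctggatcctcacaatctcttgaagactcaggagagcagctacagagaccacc
RT1-DMa: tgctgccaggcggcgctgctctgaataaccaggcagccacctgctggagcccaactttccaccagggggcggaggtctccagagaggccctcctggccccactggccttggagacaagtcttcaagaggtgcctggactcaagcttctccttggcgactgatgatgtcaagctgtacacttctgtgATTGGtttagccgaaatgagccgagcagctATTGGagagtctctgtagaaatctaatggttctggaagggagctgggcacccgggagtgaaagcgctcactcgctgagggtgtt
Cd74: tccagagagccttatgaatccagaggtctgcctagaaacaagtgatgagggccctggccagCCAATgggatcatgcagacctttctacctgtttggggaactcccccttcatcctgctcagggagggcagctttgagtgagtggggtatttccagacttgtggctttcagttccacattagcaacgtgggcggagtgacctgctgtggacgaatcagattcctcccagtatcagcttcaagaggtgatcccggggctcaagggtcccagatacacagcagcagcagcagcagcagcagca
The full letters occurred in 3.50% of all promoters, in 7.49% of the 307 of genes called higher and in 4.03% of the 521 of genes called lower, against 4.86% of 6578 tested genes with a promoter. The inner letters, which CTGATTGG contains, were in 37.5% of all promoters.

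Other immune genes rose in smaller shares. Of 37 genes of MHC class I and the interferon response, 35 had a log2 fold change above 0 (median 0.25), 4 rose and 0 fell. RT1-M6-2, a class I gene, had 9.60 to 10.65 (median 10.11) in later exercise hearts, against 9.22 to 10.05 (median 9.60) in sedentary hearts (log2 fold change 0.62, SE 0.16, adjusted p = 0.0104), and the interferon-induced Ifi27l2b had 12.53 to 13.61 (median 13.11) in later exercise hearts, against 12.12 to 12.91 (median 12.38) in sedentary hearts (log2 fold change 0.67, SE 0.19, adjusted p = 0.0163). Psmb10, a subunit of the immunoproteasome, rose by 1 probe (log2 0.61, SE 0.13, adjusted p = 0.00224), while its brighter probe did not pass (log2 0.20, adjusted p = 0.269), so its direction rests on the probe. Among 25 macrophage markers 4 rose and 0 fell, with mean levels over the list of 8.55 to 8.90 in later exercise and 8.45 to 8.76 in sedentary hearts. Fcer1g, the signalling chain of Fc receptors, had 11.21 to 11.81 (median 11.59) in later exercise hearts, against 10.93 to 11.42 (median 11.15) in sedentary hearts (log2 fold change 0.45, SE 0.11, adjusted p = 0.00465) and C1qb, a chain of complement C1q, was at 1.44 times (log2 fold change 0.52, SE 0.15, adjusted p = 0.0213, adjusted p = 0.0666 without sedentary replicate 7). Alox5ap, needed for leukotriene synthesis, lay above every sedentary heart (log2 fold change 0.71, SE 0.17, adjusted p = 0.00461). Of lymphocyte markers 1 of 16 rose, and outside the list the natural killer and T cell products Gzmc (above every sedentary heart, log2 fold change 0.63, SE 0.14, adjusted p = 0.003) and Xcl1 (log2 fold change 0.67, SE 0.17, adjusted p = 0.00842) rose. The platelet factor Pf4, the member of 4 platelet markers that rose, was at 1.49 times (log2 fold change 0.58, SE 0.13, adjusted p = 0.0028), and none of 11 granulocyte and mast cell markers passed. Of the lymphocyte markers 12, and of the granulocyte and mast cell markers 6, were higher and 0 lower on the tested-probe scale. None of these immune genes passed with brightness or the length score as a covariate, and the part of more immune cells in the result was not tested.

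Stress and growth-arrest genes added single members. Gadd45b, induced by stress and growth factors, had 6.66 to 7.77 (median 7.47) in later exercise hearts, against 6.51 to 7.00 (median 6.79) in sedentary hearts (log2 fold change 0.63, SE 0.13, adjusted p = 0.00189) and passed with brightness as a covariate (adjusted p = 0.028). Klf9, a transcription factor that glucocorticoids induce, had 11.07 to 12.26 (median 11.84) in later exercise hearts, against 12.18 to 12.68 (median 12.40) in sedentary hearts (log2 fold change -0.60, SE 0.12, adjusted p = 0.00111) and passed with the length score (0.0056). Usp2, a deubiquitinase under the circadian clock, had 11.14 to 11.51 (median 11.30) in later exercise hearts, against 11.53 to 12.04 (median 11.83) in sedentary hearts, with no overlap (log2 fold change -0.47, SE 0.089, adjusted p = 0.000592), and passed with brightness (0.0194). Of 12 clock genes 1 rose and 1 fell, Usp2 being the one that fell, and of 27 immediate early genes 1 rose and 1 fell, against 4.64% and 8.05% of all genes. Of 33 autophagy genes 6 fell and 1 rose (median 0.01; 7 higher and 6 lower on the tested-probe scale). Rb1cc1, a scaffold of the kinase complex that starts autophagy, had the smallest adjusted p of the list (log2 fold change -0.33, SE 0.081, adjusted p = 0.00607), and Ulk1, the kinase of that complex, fell further (log2 fold change -0.48, SE 0.15, adjusted p = 0.0262, adjusted p = 0.0705 without sedentary replicate 7). In mitochondrial fusion, fission and import 5 rose and 4 fell of 39, with Tomm22, a receptor of the outer membrane import pore (log2 fold change 0.37, SE 0.088, adjusted p = 0.00465), and the chaperonin partner Hspe1 (log2 fold change 0.46, SE 0.11, adjusted p = 0.00527) on the higher side. Of 16 S100 and annexin genes 4 rose and 1 fell, Anxa6 being among those that rose (log2 0.36, adjusted p = 0.00915) and Anxa11 the one that fell (log2 -0.31, adjusted p = 0.00584). Of 26 angiogenic ligands and receptors 3 fell and 0 rose, namely Nrp1, a coreceptor for vascular endothelial growth factor, with 10.80 to 11.78 (median 11.48) in later exercise hearts, against 11.82 to 12.14 (median 11.97) in sedentary hearts and no overlap (log2 fold change -0.58, SE 0.13, adjusted p = 0.00319), the receptor Notch1 (log2 fold change -0.58, SE 0.14, adjusted p = 0.00601) and the growth factor gene Pdgfa (log2 fold change -0.33, SE 0.09, adjusted p = 0.0134), against 6 higher and 5 lower on the tested-probe scale. Of 21 cell cycle genes 2 rose and 0 fell, and of 23 hypoxia response genes 0 rose and 1 fell (Tfrc).

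The length of a gene went with its direction across all genes tested. The 636 genes that fell spanned a median of 48.4 kb in the genome, the 367 that rose 7.77 kb and the 6893 that did not pass 20.3 kb (GRCr8, first to last base of the gene, introns included, for 7896 of 7904 genes). In the 1580 genes with the shortest span (up to 7.1 kb) the median log2 fold change was 0.08, with 10.8% called higher and 2.09% called lower. In the 1579 genes with the longest span (60.7 kb and more) it was -0.11, with 1.08% called higher and 16.8% called lower, and the groups of like size between them stood at 0.03, -0.02 and -0.06. The same order was seen in early exercise minus sedentary hearts at 24 weeks, which share these sedentary rats (0.05 in the shortest group and -0.05 in the longest), and in early exercise minus sedentary hearts at 9 weeks, which share none (0.04 and -0.03). With brightness as a covariate the ends stood at 0.07 and -0.11, and without later exercise replicates 3 and 5, the dimmest arrays, at 0.09 and -0.12. In the list of very long transcripts, which with the ribosomal genes makes up the length score, all 16 tested were below 0, 10 fell and 0 rose (median -0.43). Birc6, a large ubiquitin ligase that inhibits cell death, had 7.01 to 7.99 (median 7.62) in later exercise hearts, against 7.72 to 8.84 (median 8.37) in sedentary hearts (log2 fold change -0.68, SE 0.13, adjusted p = 0.00085), Dync1h1, the heavy chain of cytoplasmic dynein, 11.69 to 12.54 (median 12.11) in later exercise hearts, against 12.32 to 13.02 (median 12.65) in sedentary hearts (log2 fold change -0.53, SE 0.11, adjusted p = 0.00149), and Vps13a, a large lipid transfer protein, 5.97 to 6.80 (median 6.65) in later exercise hearts, against 6.69 to 7.65 (median 7.17) in sedentary hearts (log2 fold change -0.74, SE 0.17, adjusted p = 0.00444). Mycbp2 (log2 -0.47, adjusted p = 0.00226) and Herc2 (log2 -0.53, adjusted p = 0.00233), both large ubiquitin ligases, fell as well. At the other end 4 of 56 ribosomal protein genes rose and 0 fell (median 0.07), with Rpl13a at 1.3 times (log2 fold change 0.38, SE 0.091, adjusted p = 0.00493), which stood at -0.00 with the length score as a covariate. A long gene does not always give a long transcript, and the part of RNA length or RNA quality in these differences was not tested.

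**Figure D4:**
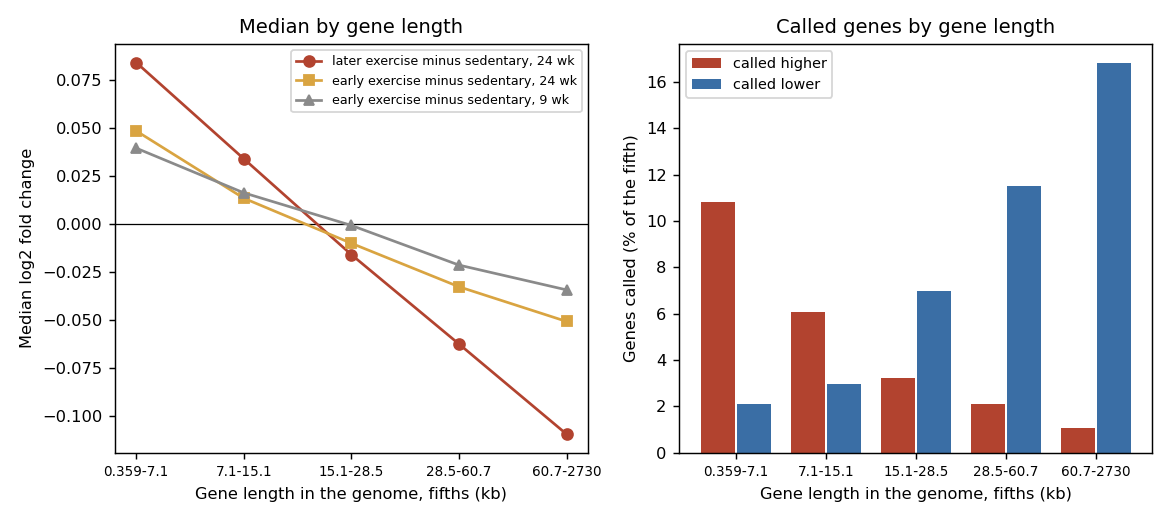
Left, median log2 fold change of genes in 5 equal groups by gene length in the genome (kb), for 3 trained against sedentary comparisons; right, percent of each group called higher or lower in later exercise minus sedentary hearts. The later exercise line runs from 0.08 in the shortest group down to -0.11 in the longest, with both early exercise lines nearer to 0 at these ends.

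Of the 6 genes that the study also followed by real-time PCR, 4 rose on the arrays and none fell, against 4.64% and 8.05% of all genes. The study chose them from genes that differed on these same arrays, so the count is no separate support. Their PCR values are not set beside the arrays here. Besides Rhoa and Sod3, given above, Ckm, the creatine kinase of muscle, was at 1.26 times (log2 fold change 0.33, SE 0.097, adjusted p = 0.0205, adjusted p = 0.0638 without sedentary replicate 4) and Cox4i1, a subunit of cytochrome c oxidase, at 1.3 times (log2 fold change 0.38, SE 0.11, adjusted p = 0.0209, adjusted p = 0.0556 without sedentary replicate 5). Spp1, the secreted matrix protein osteopontin, varied widely between rats of both groups. It had 10.20, 8.82, 7.67, 10.18, 10.60, 11.80 and 8.94 in later exercise hearts, against 10.83, 9.08, 11.10, 10.65, 11.09, 12.31 and 11.20 in sedentary hearts, and did not pass (log2 fold change -1.15, SE 0.45, adjusted p = 0.0923). Actb, the cytoplasmic actin often used as a reference, had 13.44 to 14.39 (median 13.83) in later exercise hearts, against 13.76 to 14.01 (median 13.90) in sedentary hearts by its brightest probe (log2 fold change -0.06, SE 0.11, adjusted p = 0.77), while its other probes stood at 0.34 (adjusted p = 0.188) and 0.50 (adjusted p = 0.0517), so its direction differed between probes and no probe passed.

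Hearts freshly trained as adults were next set against hearts of the same age trained only early in life, to compare recent with past training. The early exercise arrays at 24 weeks had a mean raw signal of 571 to 831, so brightness overlapped between these groups. Here 48 probes passed (0.438%), 7 higher (0.0639%) and 41 lower (0.374%) in later exercise hearts, with 12.2% at an unadjusted p below 0.05, and 42 of the 48 were also called in the same direction against sedentary hearts, with which the later exercise rats are shared. Bmpr2 had a lowest, median and highest level of 8.19, 8.52 and 9.13 in later exercise hearts and of 8.66, 9.57 and 9.94 in early exercise hearts (log2 difference -0.84, SE 0.16, adjusted p = 0.00875). Itga1 (log2 difference -0.76, adjusted p = 0.0188), Loxl2 (-0.81, 0.0274), Col8a1 (-0.59, 0.029), Adamts1 (-0.49, 0.0469) and Alcam (-0.54, 0.0477) of the matrix and adhesion genes were lower too. Cpd, a carboxypeptidase of the secretory pathway, was at 10.45 to 10.83 (median 10.56) in later exercise and 11.14 to 11.57 (median 11.28) in sedentary hearts, with no overlap (log2 fold change -0.75, SE 0.079, adjusted p = 2.02e-07), and stood -0.42 against early exercise hearts (adjusted p = 0.00683). Among signalling genes Map3k1 (-0.61, 0.0188), Dusp8 (-0.64, 0.0224), Dusp3 (-0.81, 0.0479) and Pde4b (-0.60, 0.0306) were lower, with Ppargc1b (-0.41, 0.029), Myot (-0.72, 0.0188), Slc4a4 (-0.74, 0.029) and Slc6a6 (-0.77, 0.0184). Spp1 showed the largest difference of the named genes, with 7.67, 10.18 and 11.80 in later exercise and 11.23, 12.17 and 12.58 in early exercise hearts (-2.23, SE 0.44, adjusted p = 0.0158). Gadd45b was higher (0.54, adjusted p = 0.0408). No probe passed this limma comparison with brightness as a covariate (1099 at an unadjusted p below 0.05) or when only the arrays of both groups were fitted (916 at an unadjusted p below 0.05). The count was 13 without later exercise replicate 5, 23 without replicate 2 and 133 without replicate 7.

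Finally the training effect at 24 weeks was compared with that at 9 weeks, where early exercise rats were killed at the end of their own training. The difference between both effects passed at 16 probes (0.146%), 2 higher (0.0183%) and 14 lower (0.128%), with 13.1% at an unadjusted p below 0.05. The difference contains the effect at 24 weeks itself. Bmpr2 had a training effect of -1.32 (SE 0.16) at 24 weeks and of -0.18 (SE 0.16) at 9 weeks, a difference of -1.14 (SE 0.23, adjusted p = 0.0347). Itga1 had -1.20 at 24 weeks and -0.09 at 9 weeks (difference -1.11, adjusted p = 0.0347), and Acvr2b had -0.68 at 24 weeks and 0.23 at 9 weeks (difference -0.92, adjusted p = 0.0347). Add3 had -0.89 at 24 weeks and 0.02 at 9 weeks (difference -0.91, adjusted p = 0.0347). Senp6, a protease that removes SUMO, had -0.71 at 24 weeks and -0.01 at 9 weeks (difference -0.70, adjusted p = 0.0396). The count rests on single rats: by limma it was 0 without sedentary replicate 1 (1386 at an unadjusted p below 0.05) and without sedentary replicate 6 (1331), 5 without later exercise replicate 2, 8 without replicate 5, 9 without replicate 6, 10 without sedentary replicate 5, between 24 and 33 without sedentary replicate 2 or later exercise replicates 1 or 3, and 60 without later exercise replicate 7. It was 0 with brightness as a covariate (878).

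**Figure D5:**
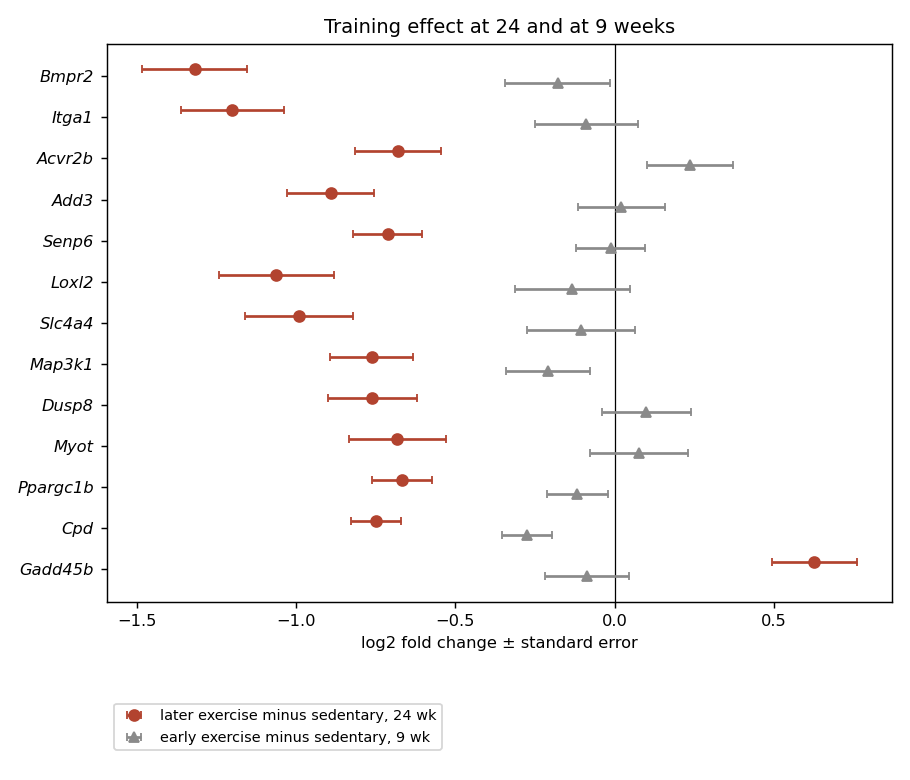
Training effect, as log2 fold change with its standard error, for 13 genes in later exercise minus sedentary hearts at 24 weeks (circles) and in early exercise minus sedentary hearts at 9 weeks (triangles). The difference between both effects passed for Bmpr2, Itga1, Acvr2b, Add3 and Senp6; the 9-week effects lie between -0.27 and 0.23.

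How far the calls held when single rats were left out went with their adjusted p. Of 187 called genes among 190 chosen from the lists and from the largest changes, 84 had an adjusted p below 0.01 and all 84 stayed called with each of the 14 rats left out in turn, against 22 of the 103 with a higher p. These genes were picked for small p or large changes on the same arrays, so the shares do not stand for all called probes. Of the 1356 called probes 901 stayed called without later exercise replicate 4, the lowest number on leaving out a single rat. Without later exercise replicates 3 and 5 together 117 of the 187 passed, and with chip as a block all 187 did. When only the groups compared were fitted 96 passed, with array weights 125, with the same median over all probes 114 and on the tested-probe scale 152. Of the called genes named above, Cpt2, Phka1 and Anxa11 did not pass on that scale, besides those whose value on it is given above. With brightness as a covariate 24 passed, with the length score 22, and 8 passed with each of these covariates: Bmpr2, Itga1, Cacna2d1, Rasa1, Ppargc1b, Add3, Cpd and Csgalnact1. Of these 8, Ppargc1b lost the call on the tested-probe scale.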

How the data were processed

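Heart RNA (500 ng per sample) of 36 rats was hybridised to Illumina rat beadchips, 1 array per rat. The authors deposited, for every array and probe, the raw signal as an intensity and a detection score as a fraction between 0 and 1. They also deposited a normalized table on the log2 scale. Recomputing that table from the raw signal by background correction (normexp, offset 16) and quantile normalization gave 1346 calls, against 1356 from the deposited log2 values. The submitters' processing notes name R 3.2.2 and limma 3.24.15. Quantile normalization gives every array the same distribution, so a shift shared by most probes cannot be seen in the table.

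Calls were made on the deposited table with limma 3.58.1 in R 4.3.3 (lmFit and eBayes, 5 groups, 36 arrays, Benjamini-Hochberg adjustment over 10956 probes). A probe was tested if its detection score was at least 0.95 on at least 7 arrays. Every adjusted p below is from this fit or the alternative named. No pseudocount was used. A gene stands for its brightest probe. Array values were compared by exact permutation over rats. Data were simulated for later exercise against sedentary hearts, with changes in 200 of 10956 probes. There 48 of 100 changes of 0.4 log2 units and 98 of 100 of 0.8 were recovered, with 13 false calls. These rates describe the simulated data only. Whether they carry over to the measured arrays, where brightness separated the groups, was not tested. The number of arrays limits the precision, and males of a litter could stand in different groups, which the labels do not resolve.

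The members and the 45 gene lists were chosen with earlier results of these data known. Named genes came from 3 sources: the 30 largest changes in each direction among called probes with the same sign on all 3 chips, the 6 smallest p in each list, and the genes the study measured by real-time PCR. Of these, 190 were followed through every alternative. Values are given mainly for those that kept the call with every rat left out, and for the others the rat whose omission gave the highest adjusted p is named. Promoters and gene spans came from RefSeq (GRCr8), matched by gene ID. The alternatives were another background correction, scaling or filter, chip or replicate number as a block, array weights, brightness or the length score as a covariate, a fit of only the groups compared, the thresholds of the study's methods, and each rat left out.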

Additional observations from a re-analysis of the deposited data

Results flagged for a closer look

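Single rats stood apart from the others of their group in 13 of 382 sets of 7 values examined, by the gap to the nearest rat as a share of the group's range (limit 0.568). Chance flags about 1 in 20 such sets. In later exercise hearts the lowest rat stood apart in Bmpr1a (replicate 6, level 6.81 against 7.51 in the nearest rat, share 0.661), Cox17 (replicate 6, 13.6 against 13.9, share 0.588), Gstm1 (replicate 7, 8.93 against 9.61, share 0.644), Snrnp70 (replicate 7, 8.30 against 8.84, share 0.737) and Gadd45b (replicate 5, 6.66 against 7.34, share 0.609). In sedentary hearts the lowest rat stood apart in Sgcd (replicate 1, 7.42 against 8.04, share 0.644), Fxyd2 (replicate 7, 6.93 against 7.31, share 0.574), Idh1 (replicate 1, 11.1 against 11.4, share 0.608), Klf13 (replicate 7, 7.22 against 7.87, share 0.585) and Alcam (replicate 2, 8.17 against 8.52, share 0.690). The highest sedentary rat stood apart in Col3a1 (replicate 4, 9.98 against 9.44, share 0.685), Map3k1 (replicate 7, 7.15 against 6.73, share 0.692) and Folr2 (replicate 1, 9.07 against 8.26, share 0.588).

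The training effect at 24 weeks differed from that at 9 weeks, by the interaction term of the limma fit, for 5 named genes. The log2 difference of the effects was -1.14 for Bmpr2 (adjusted p = 0.0347), -1.11 for Itga1 (0.0347), -0.92 for Acvr2b (0.0347), -0.91 for Add3 (0.0347) and -0.70 for Senp6 (0.0396). All these differences lost the call with brightness as a covariate, under which no probe passed.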

How the results depend on the processing

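Against sedentary hearts 1356 probes passed. The count was 4624 with arrays scaled to a common median, 4475 with a common median of the tested probes (chosen after seeing the data), 590 when only the groups compared were fitted, 837 with array weights, 144 with brightness and 211 with the length score as a covariate, and 879 without later exercise replicates 3 and 5 (0.678 for the raw signal ratio). It was 1106 to 1889 with another background correction, filter or block and 944 at the methods' thresholds. Leaving out each rat gave 911 (without sedentary replicate 5) to 1651 (without later exercise replicate 7), and 0.561 to 0.640 for the raw signal ratio. Against early exercise hearts 48 passed, against 2252 and 104 with both scalings in the same order, 31 with no detection filter, 124 with chip as a block, 0 when only the groups compared were fitted, 0 with brightness, 13 without later exercise replicates 3 and 5, and 224 at the methods' thresholds, with 13 to 133 on leaving out each rat (the lowest without later exercise replicate 5, 23 without replicate 2, the highest without replicate 7). The difference between ages had 16, against 27 without background correction, 3456 and 674 with both scalings, 1 with no filter, 59 with chip as a block, 7 when only the groups compared were fitted, 29 with array weights, 0 with brightness, 27 with the length score, 4 without replicates 3 and 5, and 703 at the methods' thresholds, with 0 to 60 on leaving out each rat. Causes of these shifts were not tested.

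With replicate number as a block 1510 probes passed against sedentary hearts (1335 of the 1356 among them), 198 against early exercise hearts and 52 between ages. The numbers did not pair the rats: the correlation of same-numbered deviations ran from -0.27 to 0.36, was above 0.1 in 3 of 7 pairs, and 1 of 7 later exercise rats correlated best with its own number.

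Relative to the median shift of -0.28, scaling to a common median turned Irs1 (0.0024), Actn2 (0.021), Got1 (0.098), Sdhb (0.26) and the uncalled Actb (0.090). The median of the tested probes turned Ctnna1 (0.0035), Gja1 (0.055), Chrm2 (0.053), Irs1 (0.18), Actn2 (0.20), Nnt (0.080), Ogdh (0.053), Got1 (0.28), Sdhb (0.44), Gpi (0.0075), Tfrc (0.12), Hspd1 (0.068), Mief1 (0.16) and Actb (0.27). The length score turned Dag1 (0.0096), Akap6 (0.065), Braf (0.0018), Flnc (0.11), Ftl1 (-0.036), Gstm1 (-0.013), S100a6 (-0.078), Ifitm1 (-0.22), C1qc (-0.0098), Hspa9 (0.041), Rpl13a (-0.0046), Arpc3 (-0.10), Cfl2 (0.095) and Actb (0.12). Actb also turned without later exercise replicate 1 (0.0066) and replicate 4 (0.00046), and ran from -0.15 to 0.0066 on leaving out each rat. Tfrc has only a bound, since no later exercise heart detected it, and Chrm2, Mief1 and Ppargc1b were detected in 1 of 7.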
